A study of Drosophila melanogaster with 18 samples.

Results

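The genes described here are 10 receptors for biogenic amines in the fruit fly Drosophila melanogaster: the dopamine receptors Dop1R1, Dop1R2, Dop2R and DopEcR, the serotonin receptors 5-HT1A, 5-HT1B, 5-HT2A, 5-HT2B and 5-HT7, and the octopamine receptor Oamb. They were chosen by name, as the rows of the gene count table that carry these symbols, and make up 10 of its 17825 genes. The study sequenced polyadenylated RNA from w1118 flies of 1 isogenic strain, with no treatment and no transgene, in 9 conditions of 2 libraries each. Heads, bodies (abdomen with thorax) and dissected gonads (testes or ovaries) were taken from males and females, with an adult age of 24 h in the labels and methods (the study's own text gives a different age in another place). The other conditions were whole embryos of 18 h, third-instar larvae and whole adults of 24 h, for which the labels give no sex. Body samples were not said to be free of gonads, and the body libraries held markers of the gonad of their sex, as given below. Nothing in the labels says whether libraries of 1 condition came from separate collections, so p-values measure only the spread between these libraries, which may be technical.

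Dopamine, serotonin and octopamine are released by small sets of neurons and act on G protein-coupled receptors, which change cyclic AMP or calcium in the receiving cell over slower times than ion channels do. In flies these receptors are known for their part in learning, sleep, arousal, feeding and egg laying, and most work on them concerns the brain, where the mushroom bodies hold high levels of several. Dop1R1, Dop1R2 and 5-HT7 stimulate the receiving cell through cyclic AMP or calcium, Dop2R, 5-HT1A and 5-HT1B lower cyclic AMP, 5-HT2A and 5-HT2B act through phospholipase C, and Oamb raises calcium and is required for ovulation. DopEcR is unusual in that it answers both to dopamine and to the steroid hormone ecdysone.

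The libraries held between 37198249 and 87676051 counts. Levels are given as CPM (counts relative to library size) after TMM scaling, a normalization that sets libraries against each other by the trimmed mean of their gene ratios, which was done apart for the 12 libraries of adult parts (stranded reads of 150 bp) and the 6 libraries of stages (unstranded reads of 100 bp). A gene was called when its adjusted p was under 0.05 and its change at least 2-fold in edgeR's quasi-likelihood test over 12597 genes of the adult parts or 12335 genes of the stages. All 10 receptors passed the filter on low counts in both fits. roX1, which is made in males, stood between 79.1 and 2298 CPM in the male libraries and between 1.69 and 12.5 CPM in the female ones. The heads held the neuronal markers (6 genes, summed level 7707 to 10871 CPM, against 148 to 392 in bodies, 66.5 to 67.9 in testes and 16.3 to 29.6 in ovaries), although elav, the usual marker of neurons, had at most 5 counts in any adult head library, and the glial genes alrm and moody had 0 counts in all 18 libraries. Since the treatment of reads in overlapping genes is not given, such low or 0 counts need not mean absent RNA. The testis libraries also held the accessory gland gene Acp26Aa at 123536 and 131553 counts, and muscle markers at 416 to 543 CPM. Replicate 1 held higher summed testis markers than replicate 2 in each female part, at 45.8 against 9.19 CPM in ovaries and 19.5 against 3.87 in female bodies. The whole adults held testis markers at 345 to 403 CPM and ovary markers at 27.7 to 32.9 CPM, where ovaries held 14122 to 17220.

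The counts of a gene cover its whole span from first to last base, introns included. In dm6 coordinates the dopamine receptors lie at 3R 14165379 to 14214810 (Dop1R1, minus strand), 3R 29630304 to 29659984 (Dop1R2, minus), X 20004680 to 20062706 (Dop2R, minus) and 3L 4367649 to 4380387 (DopEcR, minus). The serotonin receptors lie at 2R 19067155 to 19121958 (5-HT1A, plus), 2R 19022325 to 19032642 (5-HT1B, minus), 3R 4612870 to 4633304 (5-HT2A, plus), 3R 8578205 to 8629996 (5-HT2B, plus) and 3R 30968236 to 31016875 (5-HT7, minus), and Oamb at 3R 20689018 to 20714577 (minus). Exons made up between 9.16% (5-HT1A) and 39.0% (5-HT1B) of these spans in Ensembl 115. Dop2R, DopEcR, 5-HT1A, 5-HT1B, 5-HT2B and 5-HT7 hold smaller genes inside their introns, over 0.618% to 4.99% of the span and 0 exonic bases, and these inner genes all had 0 counts. How the counter treated reads in overlapping genes is not given, so these 0 counts do not show that the inner genes were silent.

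The dopamine receptors were at their highest levels in heads. Dop1R1, a receptor needed in the mushroom bodies for associative learning, stood at 109.9 and 116 CPM in male heads and 94.6 and 116 CPM in female heads, against 7.15 and 5.88 in male bodies and 1.04 and 0.573 in female bodies. In testes it reached 13.9 and 10.4 CPM, above both male body libraries, and in ovaries 0.835 and 0.392. The 4 head libraries lay above every other adult part, male gonads above male bodies, and female bodies and ovaries overlapped.

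Dop1R2, which acts in the mushroom bodies in forgetting, stood at 54.9 and 53.4 CPM in male heads and 49.5 and 42.4 in female heads. Its levels in bodies were 1.36 and 1.66 CPM in males and 1.15 and 0.632 in females. In gonads it was near the limit of detection, with 4 and 7 counts in the testis libraries and 4 and 2 counts in the ovary libraries. Unlike Dop1R1, it was therefore lower in testes than in male bodies, with no overlap between their libraries.

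Dop2R, an inhibitory receptor that dopamine neurons also carry themselves, stood at 74.8 and 66.1 CPM in male heads and 67.0 and 58.0 in female heads. Male bodies (3.60 and 3.21 CPM) and testes (3.14 and 2.94) were close, with libraries that did not overlap, female bodies held 1.84 and 1.07 CPM, and the ovary libraries had 12 and 0 counts. A count of 0 allows a level of up to 0.0471 CPM, the level of 3 counts, in that ovary library.

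DopEcR, the receptor for both dopamine and ecdysone, had the highest head level per kilobase of the 10 genes. It reached 1195 and 849 CPM in male heads and 1097 and 732 in female heads, against 29.5 and 22.7 in male bodies and 18.3 and 10.3 in female bodies. Testes held 116 and 93 counts and ovaries 69 and 34 counts (1.02 ± 0.695 CPM in ovaries), and these groups overlapped. Per kilobase of exon its level was 238 ± 57.0 CPM in male heads and 213 ± 60.2 in female heads (SD, n = 2), where the next receptor, 5-HT2A, stood at 27.3 ± 5.67 and 26.3 ± 4.81. It also ranked first per kilobase of exon in both bodies, embryos, larvae and whole adults, but had rank 6 in testes and rank 2 in ovaries, and its ranks per kilobase of span were the same except for testes, where it had rank 4.

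Among the serotonin receptors, 5-HT2A, which is coupled to phospholipase C, had 169 and 126 CPM in male heads and 161 and 124 in female heads. Male bodies held 13.4 and 12.8 CPM, testes 10.8 and 12.7, female bodies 6.50 and 4.37, and ovaries 0.681 and 0.408. Of the 10 receptors it had the highest level per kilobase in testes, at 2.17 ± 0.255 CPM per kilobase of exon. The heads of both sexes overlapped, and all other neighbouring groups in its order were separate.

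5-HT7, a receptor that raises cyclic AMP, stood at 59.3 and 64.3 CPM in male heads and 51.6 and 55.4 in female heads. Its testis level of 7.83 and 7.33 CPM lay above that of male bodies (6.04 and 6.82), and female bodies (2.11 and 2.19) lay above ovaries (0.264 and 0.220, from 12 and 14 counts). 5-HT1A, an inhibitory receptor known for its part in sleep, followed the same order, with 119 and 115 CPM in male heads, 108 and 93.6 in female heads, 6.91 and 6.42 in testes, 6.13 and 5.38 in male bodies, 1.61 ± 0.158 (mean ± SD, n = 2) in female bodies and 0.506 and 0.157 in ovaries. In both genes no neighbouring groups overlapped, although testes and male bodies were close.

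5-HT2B, the other receptor of the phospholipase C type, stood at 40.9 and 46.9 CPM in male heads and 38.5 and 43.4 in female heads, and lay between 0.518 and 1.57 CPM in bodies and testes. The ovary libraries held 6 counts each. 5-HT1B, an inhibitory receptor found in clock neurons and mushroom bodies, stood at 53.3 and 51.2 CPM in male heads and 49.5 and 44.3 in female heads, at 2.85 and 3.08 in male bodies, 0.882 and 0.711 in female bodies and 0.495 and 0.387 in testes, and had 6 and 0 counts in the ovary libraries. 5-HT1B was thus the serotonin receptor whose testis level lay below the bodies of both sexes.

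Oamb, the octopamine receptor required for ovulation, had ovary levels close to those of female bodies. It stood at 119 and 102 CPM in male heads and 119 and 95.3 in female heads, but at 12.1 and 20.0 CPM in ovaries (550 and 1274 counts), 13.5 and 12.3 in female bodies, 9.28 and 9.38 in male bodies and 6.69 and 11.8 in testes. Ovaries overlapped female bodies, and male bodies overlapped testes, while each of the other 9 receptors was at or below 1.52 CPM in both ovary libraries. Per kilobase of exon Oamb had rank 1 in ovaries (2.90 ± 1.01 CPM), rank 2 in female bodies (2.33 ± 0.162) and rank 4 in heads of either sex.

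**Figure D1:**
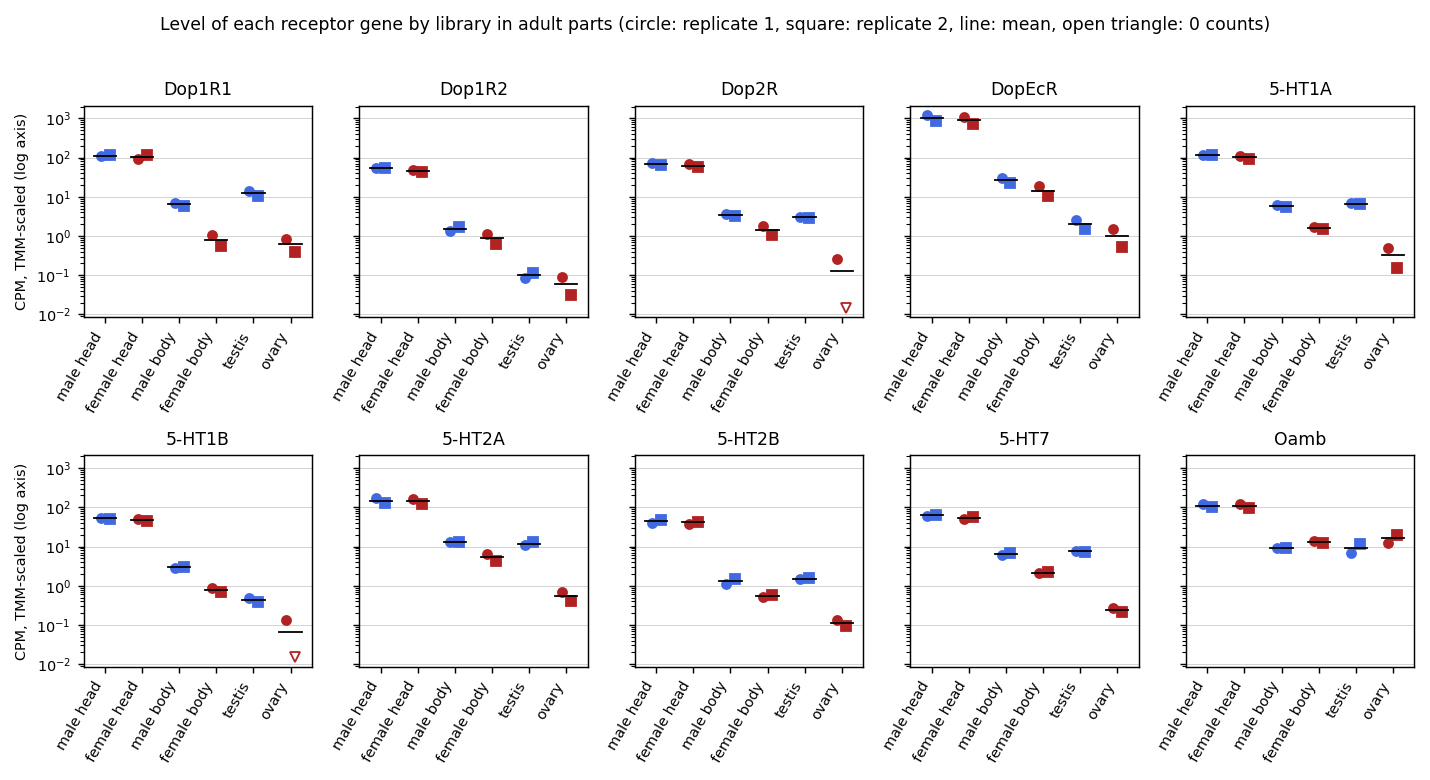
TMM-scaled CPM (log axis) of each of the 10 receptor genes in the 6 adult parts, with circles for replicate 1, squares for replicate 2, lines for the mean of 2 libraries, blue for males, red for females, and open triangles at an arbitrary height for a library with 0 counts. All genes were highest in the 4 head libraries, and Oamb was the 1 gene with ovary levels above 2 CPM, at 12.1 and 20.0.

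The first question the design poses is how heads differ from bodies, and this and the later comparisons share libraries with each other. All 10 receptors were called higher in male heads than in male bodies, with log2 fold changes between 3.26 (5-HT7) and 5.29 (DopEcR) and a median of 4.24, where 20.9% of all genes tested were called higher and the median over all genes was −0.09. In females all 10 were called as well, between 3.06 (Oamb) and 7.03 (Dop1R1) with a median of 5.78, where 19.2% of genes were called higher. The dopamine receptors in males changed by 4.11 ± 0.42 (SE) for Dop1R1, 5.16 ± 0.41 for Dop1R2, 4.37 ± 0.79 for Dop2R and 5.29 ± 0.59 for DopEcR, with adjusted p of at most 0.0015 in edgeR's quasi-likelihood test. In females the largest change after Dop1R1 (7.03 ± 0.49, adjusted p = 9.0e-06) was that of 5-HT2B (6.20 ± 0.32). These 20 calls held under every alternative in which the gene was tested.

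Markers of neurons, the eye and glia moved the same way. Of the 6 neuronal markers, 5 were tested and all 5 were called higher in heads, with a median log2 fold change of 4.69 in males and 5.71 in females, beside the receptors' medians of 4.24 and 5.78. All 3 photoreceptor genes tested were called higher in heads, with medians of 9.39 in males and 9.54 in females and summed levels of 24669 to 39699 CPM in heads against 17.8 to 68.9 in bodies, as was the glial gene repo (3.57 and 4.31). In a bulk sample fewer cells of a type and less RNA per cell cannot be told apart, and the part of the neuronal, eye and glial share of each sample in the receptor changes was not tested. As a share of the head library of the same sex and number, nSyb, a vesicle protein of all neurons, stood at 3.37% and 4.01% in male bodies and 1.65% and 1.65% in female bodies. DopEcR (2.47% and 2.68% in males, 1.67% and 1.40% in females) lay below nSyb in male bodies and near it in female bodies, whereas 5-HT7 (10.2% and 10.6%, then 4.09% and 3.96%) and Oamb (7.76% and 9.16%, then 11.3% and 12.9%) lay above it in both sexes. 5-HT2A (7.92% and 10.2%, then 4.05% and 3.53%) and Dop2R (4.81% and 4.86%, then 2.75% and 1.84%) also lay above nSyb in both sexes. The remaining receptors did not lie above it in every body library. Other markers stood higher than nSyb. The glial gene repo stood at 7.39% and 9.30% in male bodies, near Oamb, and at 4.49% and 5.50% in female bodies, above 5-HT7. The neuronal marker cac stood at 4.58% and 4.79% in male bodies and at 3.56% and 3.26% in female bodies. 5-HT7 in male bodies and Oamb in female bodies lay above both repo and cac. Within same-numbered libraries, so did 5-HT2A in male bodies.

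All 10 receptors were also called higher in heads than in gonads. Against testes the log2 fold changes ran from 3.03 (5-HT7) to 9.04 (Dop1R2) with a median of 4.33, where 37% of all genes tested were called higher. Dop1R2 (9.04 ± 0.51), DopEcR (SE 0.70, adjusted p = 9.8e-06) and 5-HT1B (6.89 ± 0.70) had the largest values, and the other 7 lay between 3.03 and 4.85. Against ovaries they ran from 2.74 (Oamb, ± 0.35, adjusted p = 0.00013) to 9.81 (DopEcR, ± 0.73, adjusted p = 5.0e-06) with a median of 8.39, where 27.4% of genes were called higher, and the 9 receptors other than Oamb were all at or above 7.44. Some ratios against ovaries rest on very few ovarian counts. By the ratio of summed counts with its exact interval, Dop1R2 was 834 times higher (95% interval 383 to 2273, 6 counts in ovaries), Dop2R 567 times (324 to 1098, 12 counts) and 5-HT1B 852 times (391 to 2324, 6 counts), intervals that cover counting error only.

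Gonad levels were set beside those of genes of the eye. The photoreceptor genes ninaE, trp and inaC, whose products work in the eye, stood in ovaries at 0.0539% to 0.158% of the head library of the same number, and in testes at 0.0590% to 0.168%. DopEcR in ovaries (0.138% and 0.0728%) fell within that range, Dop1R2 in ovaries (0.178% and 0.0739%) and testes (0.157% and 0.212%) and DopEcR in testes (0.209% and 0.177%) lay in it or above it, and head RNA or reads in the gonad libraries were not tested as a part of these levels. The eye genes stood at 0.116% to 0.158% in the first ovary library, with DopEcR (0.138%) inside and Dop1R2 (0.178%) above. In the second ovary library they stood at 0.0539% to 0.0686%, below both DopEcR (0.0728%) and Dop1R2 (0.0739%). Dop2R and 5-HT1B were below the eye genes in that second library, at 0 counts, after 0.394% and 0.266% in the first. Dop1R1, 5-HT1A, 5-HT2A, 5-HT2B and 5-HT7 stood at 0.168% to 0.883% over both ovary libraries. The other testis levels were above the range in testes, at 0.756% to 0.929% for 5-HT1B, 3.34% to 3.58% for 5-HT2B, 4.20% to 4.44% for Dop2R and 5.60% to 13.2% for Dop1R1, 5-HT1A, 5-HT2A, 5-HT7 and Oamb. Oamb in ovaries stood at 10.1% and 21.0% of its head level. The neuronal genes themselves varied in testes, with Syt1 at 0.173% and 0.175% of heads and brp at 2.56% and 3.43%.

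**Figure D2:**
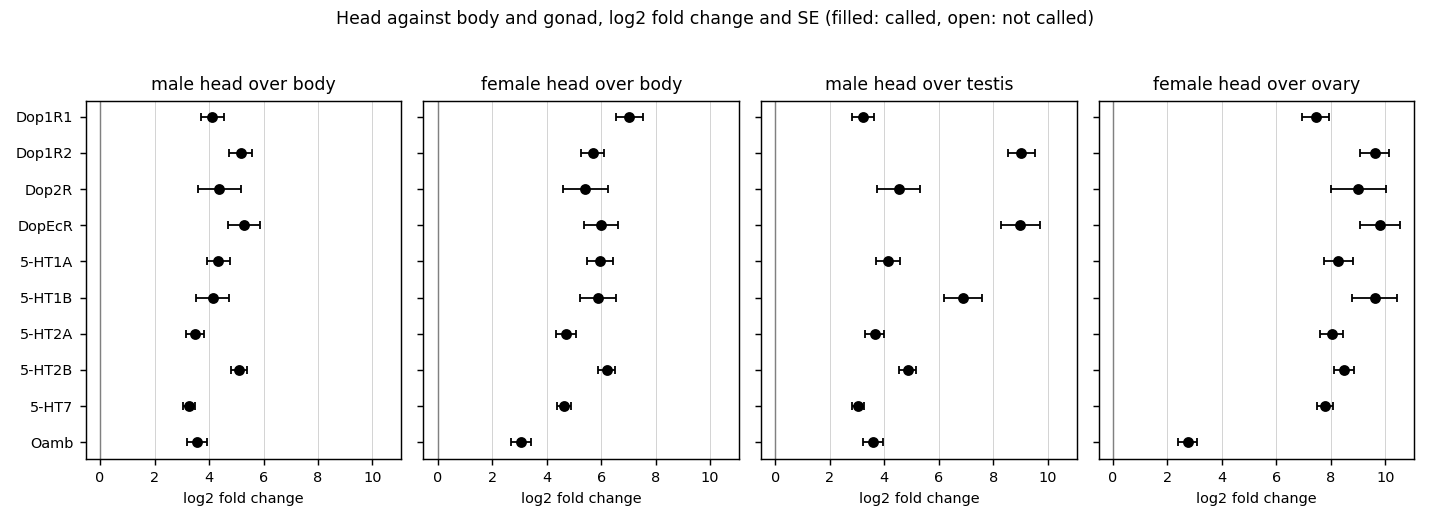
Log2 fold change with its SE (bars) for each receptor gene in male head over body, female head over body, male head over testis and female head over ovary, from edgeR's fit over 12 libraries, with filled points for called genes. All 40 points are filled and lie at or above 2.74, and Oamb has the lowest value in both female panels.

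Bodies and gonads of the same sex were compared next. Testis markers stood at 709 to 1206 CPM in male bodies and 1847 to 3488 in testes. Ovary markers stood at 9519 to 14356 CPM in female bodies and 14122 to 17220 in ovaries. The gonads were thus set against bodies that held gonad RNA, and its part in the body to gonad differences and interactions was not tested. In males 3 of 10 receptors were called higher in bodies than in testes, Dop1R2 (3.88 ± 0.45 on the log2 scale, adjusted p = 0.00027), DopEcR (3.71 ± 0.56, adjusted p = 0.0010) and 5-HT1B (2.75 ± 0.60, adjusted p = 0.0074), where 24% of all genes were called higher. The other 7 lay between −0.90 and 0.16 and were not called. Dop1R1 was the lowest of these at −0.90 ± 0.38 (adjusted p = 0.11), and it was called lower in bodies than in testes with DESeq2's size factors (−1.46, adjusted p = 0.014), in DESeq2's Wald test (−1.46), with no filter on low counts (−1.25, adjusted p = 0.029) and with at least 10 counts in every library (−1.42). The call of 5-HT1B was lost without testis replicate 1 (adjusted p = 0.068) or without testis replicate 2 (adjusted p = 0.083). Accessory gland markers stood at 876 to 1403 CPM in male bodies and 2218 to 2944 in testes, and their part in the testis levels was not tested.

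In females 8 of 10 receptors were called higher in bodies than in ovaries, with values from 2.29 (5-HT2B) to 3.93 (Dop1R2), where 19.6% of genes were called higher. The exceptions were Dop1R1 (0.41 ± 0.41, adjusted p = 0.49) and Oamb (−0.31 ± 0.33, adjusted p = 0.51), and both changed sign when 1 library was left out, Dop1R1 to −0.09 without female body replicate 1 and Oamb to 0.21 without ovary replicate 2. When only these 4 libraries were fitted, which leaves 2 degrees of freedom for the spread, 2 of the 8 calls were kept, those of DopEcR and 5-HT2A.

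The next question was whether the sexes differ. In heads no receptor was called, and 0 of 10 had an unadjusted p under 0.05 in edgeR or in DESeq2, where 0.0318% of all genes were called in either direction. The log2 fold changes of female over male heads lay between −0.24 (Dop1R2, ± 0.34) and −0.05 (Oamb, ± 0.33). Male libraries lay above both female libraries for Dop1R2, 5-HT1A, 5-HT1B and 5-HT7, and the other 6 overlapped. Within same-numbered libraries, 9 of 10 receptors were lower in the female head of both pairs, all but Dop1R1, and with the replicate number as a block 0 were called. For Oamb the first pair was nearly equal (119.43 against 119.48 CPM). The share of all genes with such orders was not counted. Neuronal markers showed a like shift, at a median of −0.20 (−0.33 to −0.14, none called), beside −0.16 for the receptors and −0.01 for all genes. The SEs ran from 0.21 (5-HT7) to 0.68 (Dop2R).

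In bodies 6 of 10 receptors were called lower in females, namely Dop1R1 (−3.01 ± 0.41, adjusted p = 0.00056), 5-HT1A (−1.83 ± 0.40, adjusted p = 0.0043), 5-HT1B (−1.89 ± 0.57, adjusted p = 0.019), 5-HT2A (−1.27 ± 0.32, adjusted p = 0.0079), 5-HT2B (−1.21 ± 0.28, adjusted p = 0.0054) and 5-HT7 (−1.58 ± 0.22, adjusted p = 0.00059), where 27.7% of all genes were called lower. All 5 serotonin receptors were thus called, and 1 of the 4 dopamine receptors. Dop1R2 (−0.76 ± 0.36), Dop2R (−1.23 ± 0.71) and DopEcR (−0.87 ± 0.50) were not called, and Oamb stood at 0.47 ± 0.33, not called, turning to −0.04 with DESeq2's size factors and to −0.36 without male body replicate 1. Those size factors moved the median of all genes in this comparison by −0.51 and called Dop1R2, Dop2R and DopEcR as well, 9 in all, as did DESeq2's Wald test, and DopEcR was also called with at least 10 counts in every library (−1.48, adjusted p = 0.025). 5-HT1B lost its call without male body replicate 2 (adjusted p = 0.066), 5-HT2B without male body replicate 2 (−0.85), without female body replicate 1 (just under the fold minimum) or with only these groups fitted (−1.18, adjusted p = 0.082), and Dop1R2 gained one without female body replicate 1, female body replicate 2 or male body replicate 1.

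Neuronal markers were also lower in female bodies, at a median of −1.23 with 3 of 5 called, beside a median of −1.25 for the receptors and −0.18 for all genes. Ovary markers took up 9519 to 14356 CPM in female bodies and 50.3 to 62.3 in male bodies. Testis markers took up 709 to 1206 CPM in male bodies and 3.87 to 19.5 in female bodies. The part of the ovary's and the testis's share of body RNA in these differences was not tested. The lowest value of a neuronal marker was −1.71 (brp), against −3.01 for Dop1R1.

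Called lower in ovaries than in testes were 7 of 10 receptors, with 5-HT7 (−4.97 ± 0.26, adjusted p = 5.7e-06), Dop2R (−4.64 ± 0.89), 5-HT2A (−4.44 ± 0.37), 5-HT1A (−4.36 ± 0.46), Dop1R1 (−4.32 ± 0.44), 5-HT2B (−3.74 ± 0.33) and 5-HT1B (−2.87 ± 0.78, adjusted p = 0.0080), where 37.6% of all genes were called lower. The call of 5-HT1B was lost when only these groups were fitted (−3.16, adjusted p = 0.060). Dop1R2 (−0.82 ± 0.59), with 2 to 7 counts per library, was not called, but it was with DESeq2's size factors (−1.77, adjusted p = 0.017) and in DESeq2's Wald test (−1.83, adjusted p = 0.031). DopEcR (−0.97 ± 0.52) was not called, but it was with the replicate number as a block (−1.04, adjusted p = 0.0076) and when ovary replicate 1, ovary replicate 2 or testis replicate 2 was left out (−1.30 to −1.89). It was also called with DESeq2's size factors (−1.97, adjusted p = 0.0072), upper-quartile factors (−1.57), a minimum of 10 counts in each library (−2.22), no count filter (−1.23) and in DESeq2's Wald test (−1.98), and both DESeq2 settings called 9 of 10 receptors lower. Oamb stood at 0.79 ± 0.33 (adjusted p = 0.053), not called, was called higher in ovaries without ovary replicate 1 (1.11, adjusted p = 0.016), and turned to −0.16 with DESeq2's size factors, which moved the median of all genes by −0.95, and to −0.53 without ovary replicate 2.

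**Figure D3:**
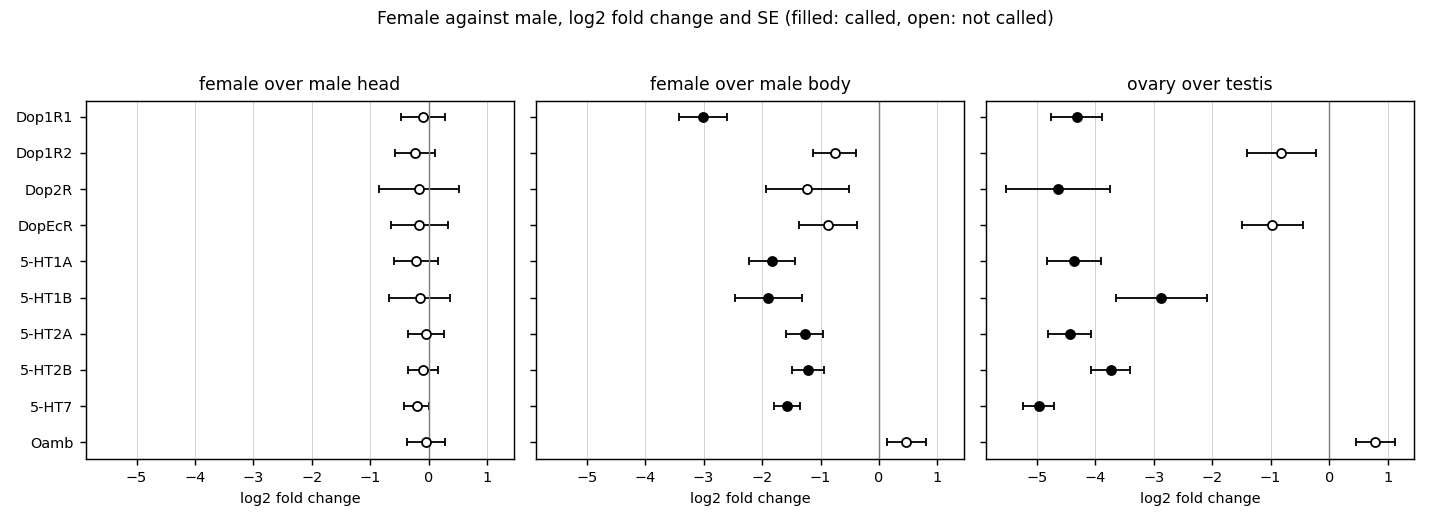
Log2 fold change of female over male with its SE (bars) for each receptor gene in heads, bodies and gonads, with filled points for called genes. In heads all points lie between −0.24 and −0.05, in bodies 6 genes are called lower in females and in gonads 7, and Oamb has the 1 positive value in both panels, at 0.47 and 0.79, which turn to −0.04 and −0.16 with DESeq2's size factors.

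The differences between parts were then compared between the sexes. These interactions combine the female over male changes of the parts given above, from the same libraries. The head to body difference was larger in females for 4 receptors, Dop1R1 (by 2.92 ± 0.55 on the log2 scale, adjusted p = 0.0052), 5-HT1A (1.62 ± 0.54, adjusted p = 0.046), 5-HT7 (1.37 ± 0.30, adjusted p = 0.010) and 5-HT2B (1.11 ± 0.37, adjusted p = 0.046), where 15.7% of all genes had a larger difference in females. 5-HT1A lost its call without either female head, either male head or male body replicate 2, 5-HT2B without any of these 5, without female body replicate 1 or with no filter on low counts (0.95, adjusted p = 0.089), and 5-HT7 without male body replicate 2 (adjusted p = 0.066) or male head replicate 2 (adjusted p = 0.055). With the replicate number as a block, 5-HT1B (1.75, adjusted p = 0.039) and 5-HT2A (1.24, adjusted p = 0.016) were called as well.

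The head to gonad difference was larger in females for 7 receptors, between 2.72 (5-HT1B) and 4.76 (5-HT7), where 28.1% of genes were called. 5-HT1B lost its call without female head replicate 1 or 2, male head replicate 1 or testis replicate 1. The body to gonad difference was larger in females for 4 serotonin receptors, 5-HT7 (3.39 ± 0.33, adjusted p = 0.0017), 5-HT2A (3.17 ± 0.46, adjusted p = 0.0044), 5-HT2B (2.53 ± 0.42, adjusted p = 0.0072) and 5-HT1A (2.53 ± 0.58, adjusted p = 0.023), where 5.84% of genes were called, and Dop2R was added with the replicate block (3.48, adjusted p = 0.026). Without ovary replicate 1 this count was 7, with Dop1R1, Dop2R and 5-HT1B added, and 5-HT1A was lost without female body replicate 2, male body replicate 1 or testis replicate 1.

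The makeup of the receptor counts changed between parts. Shares here are percentages of the summed counts of the 10 genes, not corrected for gene length, so that 1 gene may be compared between parts but not 1 gene with another. DopEcR took 56.6% ± 4.57 of the receptor counts in male heads and 56.0% ± 5.41 in female heads, 34.0% ± 3.76 in male bodies and 34.3% ± 5.96 in female bodies, and 3.68% ± 1.36 in testes (SD, n = 2). Dop1R1 took 22.4% ± 4.91 in testes and 6.39% ± 1.25 in male heads. Oamb took 73.2% (95% Wilson interval 70.0 to 76.3) and 91.6% (90.0 to 92.9) of the 751 and 1391 receptor counts in the ovary libraries, 28.4% and 35.9% in female bodies, 11.5% and 13.0% in male bodies, and at most 6.78% in any head library. The libraries did not overlap between ovaries, female bodies and male bodies, while the testis share of Oamb (12.4% and 21.4%) overlapped that of male bodies.

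**Figure D4:**
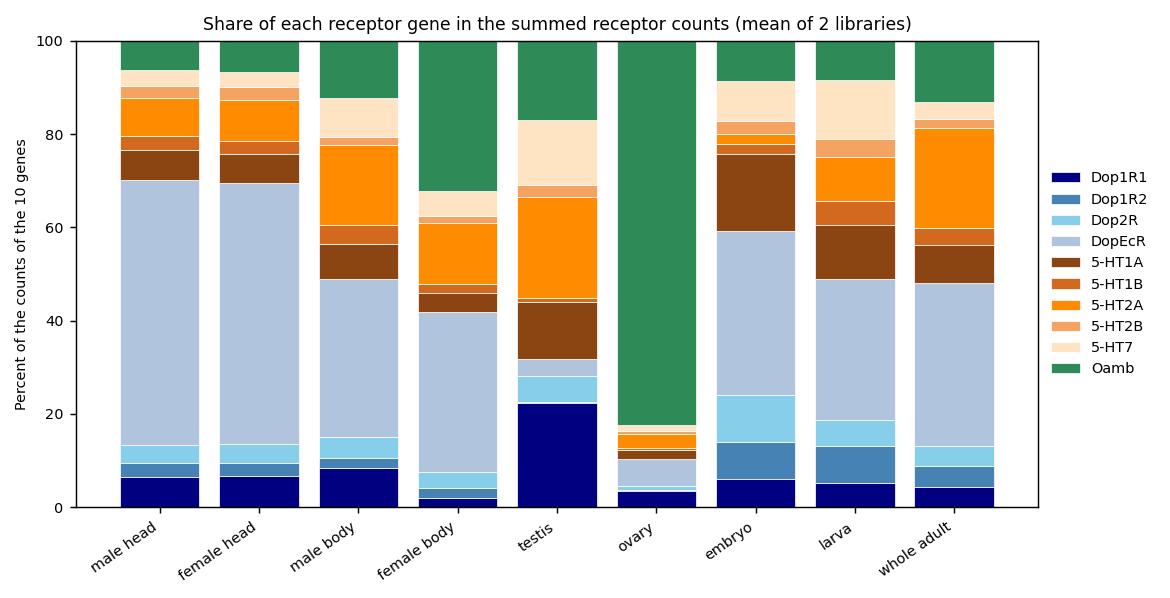
Share of each receptor gene in the summed counts of the 10 genes (percent, stacked bars from 0 to 100, mean of 2 libraries) in the 9 conditions, with dopamine receptors in blue, serotonin receptors in orange and brown and Oamb in green. DopEcR fills 56.6% and 56.0% in male and female heads, and Oamb fills 82.4% in ovaries.

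Other genes of the amine systems, listed by name, are given for comparison. Of 7 further octopamine and tyramine receptors, 6 were called higher in male heads than in bodies and 7 in female heads, with medians of 3.69 and 4.14, and 7 were called against each gonad. Octbeta1R, an octopamine receptor that raises cyclic AMP, had the largest head to body changes of these, at 5.49 in males and 6.66 in females. Only TyrR, a tyramine receptor, was called lower in female than in male bodies (−1.60), and it was also lower in ovaries than in testes (−7.06). Between gonads 3 of 7 were called lower in ovaries and 1 higher, Octbeta3R at 1.08, where DESeq2's size factors lowered the median of all genes by 0.95. The shares over all genes tested in that comparison were 37.6% lower and 35.9% higher.

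The genes that make and carry the amines followed in part. Of 11, 9 were tested, since Tdc1 and Tdc2, which make tyramine, had 0 counts in all libraries. Whether reads of overlapping genes were dropped is not given, so these 0 counts do not show that their RNA was absent. Called higher in heads than in bodies were 6 in males and 9 in females. Tbh, which makes octopamine, was at 96.5 CPM in male heads and 0.152 in ovaries, SerT, the serotonin transporter, at 26.1 and 0.0377 (2 counts in each ovary library), and DAT, the dopamine transporter, at 32.9 CPM in male heads and 34.5 in testes, with a head over testis change of −0.07. Vmat, which loads all of these amines into vesicles, was lower in testes (1.64 CPM) than in ovaries (13.5 CPM), opposite to most of the receptors. Between gonads 6 of the 9 were called lower in ovaries and 2 higher, Vmat and Pu, the first enzyme of the cofactor of amine synthesis. Beside these counts, 37.6% of all genes tested were called lower in ovaries and 35.9% higher.

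Of 24 genes of G protein, cyclic AMP and arrestin signalling, 19 were called higher in male heads than in bodies and 1 lower, with a median of 1.85, less than that of the receptors. Against testes 23 were called higher in heads. Between gonads the direction was opposite to that of the receptors, with 15 of 24 called higher in ovaries, 3 lower and a median of 1.65, beside −4.03 for the receptors. Over all genes tested, 35.9% were called higher in ovaries than in testes and 37.6% lower. With DESeq2's size factors the median of all genes in that comparison lay 0.95 lower.

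In the stages the receptors were low in larvae. All 10 were called lower in larvae than in embryos, with log2 fold changes between −4.29 (Dop2R) and −1.25 (5-HT2A) and a median of −3.43, where 19.3% of all genes were called lower and the median over all genes was 0.31. Dop2R stood at 40.9 and 26.6 CPM in embryos, 1.79 and 1.66 in larvae and 8.67 and 8.92 in whole adults. 5-HT1A stood at 60.1 and 48.4 CPM in embryos, 3.29 and 3.90 in larvae and 15.9 and 17.3 in adults, a fall of 3.92 ± 0.22 from embryo to larva (adjusted p = 3.5e-05). For these genes the 3 stages did not overlap, with embryos highest.

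DopEcR stood at 119 and 109 CPM in embryos, 10.6 and 8.34 in larvae and 73.0 in both adult libraries. Dop1R1 held 22.9 and 17.4 CPM in embryos, 1.96 and 1.26 in larvae and 8.36 and 9.81 in adults, and Dop1R2 32.4 and 20.0, 2.04 and 2.85, and 8.57 and 10.2. The dopamine receptors thus shared 1 order, embryo over adult over larva. 5-HT7 had the same order (30.3 and 26.2, 4.75 and 3.23, and 8.09 and 6.88 CPM), as did 5-HT2B (10.7 and 7.31, 1.31 and 1.05, and 4.84 and 3.25 CPM).

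5-HT2A, 5-HT1B and Oamb did not share that order. 5-HT2A stood at 7.30 and 6.73 CPM in embryos, 2.67 and 3.23 in larvae and 44.9 and 44.0 in adults, the 1 receptor that was highest in adults without overlap. 5-HT1B held 8.30 and 6.04 CPM in embryos, 0.946 and 2.14 in larvae and 8.32 and 7.59 in adults, and Oamb 31.9 and 25.0, 2.99 and 2.23, and 27.5 and 27.4. For both, adults overlapped embryos.

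From larvae to whole adults 9 of 10 receptors were called higher, with 5-HT2A (3.91 ± 0.22, adjusted p = 7.8e-05), Oamb (3.39 ± 0.25) and DopEcR (2.95 ± 0.19) at the top, where 23.1% of all genes were called higher. 5-HT7 stood higher by 0.91 ± 0.27 (adjusted p = 0.029), under the fold minimum, and was called without larva replicate 1 (1.21) and with DESeq2's size factors (1.10). Between whole adults and embryos 1 receptor was called higher, 5-HT2A (2.66 ± 0.21, adjusted p = 7.5e-05), where 29.7% of genes were called higher, and 6 were called lower, where 19% of genes were called lower. The 6 were Dop2R (−1.94 ± 0.27), 5-HT7 (−1.92 ± 0.27), 5-HT1A (−1.71 ± 0.20), Dop1R2 (−1.48 ± 0.32), 5-HT2B (−1.16 ± 0.36) and Dop1R1 (−1.15 ± 0.30), and Dop1R1 and 5-HT2B lost their calls without embryo replicate 1 or either adult library. DopEcR (−0.64 ± 0.18, adjusted p = 0.019) was under the fold minimum, and 5-HT1B (0.15 ± 0.41) and Oamb (−0.05 ± 0.23) were not called and changed sign under some alternatives, to −0.07 without embryo replicate 2 for 5-HT1B and to 0.13 without embryo replicate 1 for Oamb.

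Neuronal markers fell from embryos to larvae as well, with 4 of 6 called and a median of −3.34, beside −3.43 for the receptors, and adults over embryos had a median of −1.67 with 3 of 6 called lower, beside −1.15. 5-HT2A rose from embryos to adults while each of the 6 neuronal markers was at or below −0.29. Photoreceptor genes stood at 1.01 to 1.44 CPM in embryos and 2010 to 2338 CPM in whole adults (summed, 3 of 3 tested called higher), and muscle genes at 15201 to 17753 and 48519 to 48817 CPM (1 of 4 called higher). The part of neurons, eye and muscle in the stage differences was not tested.

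**Figure D5:**
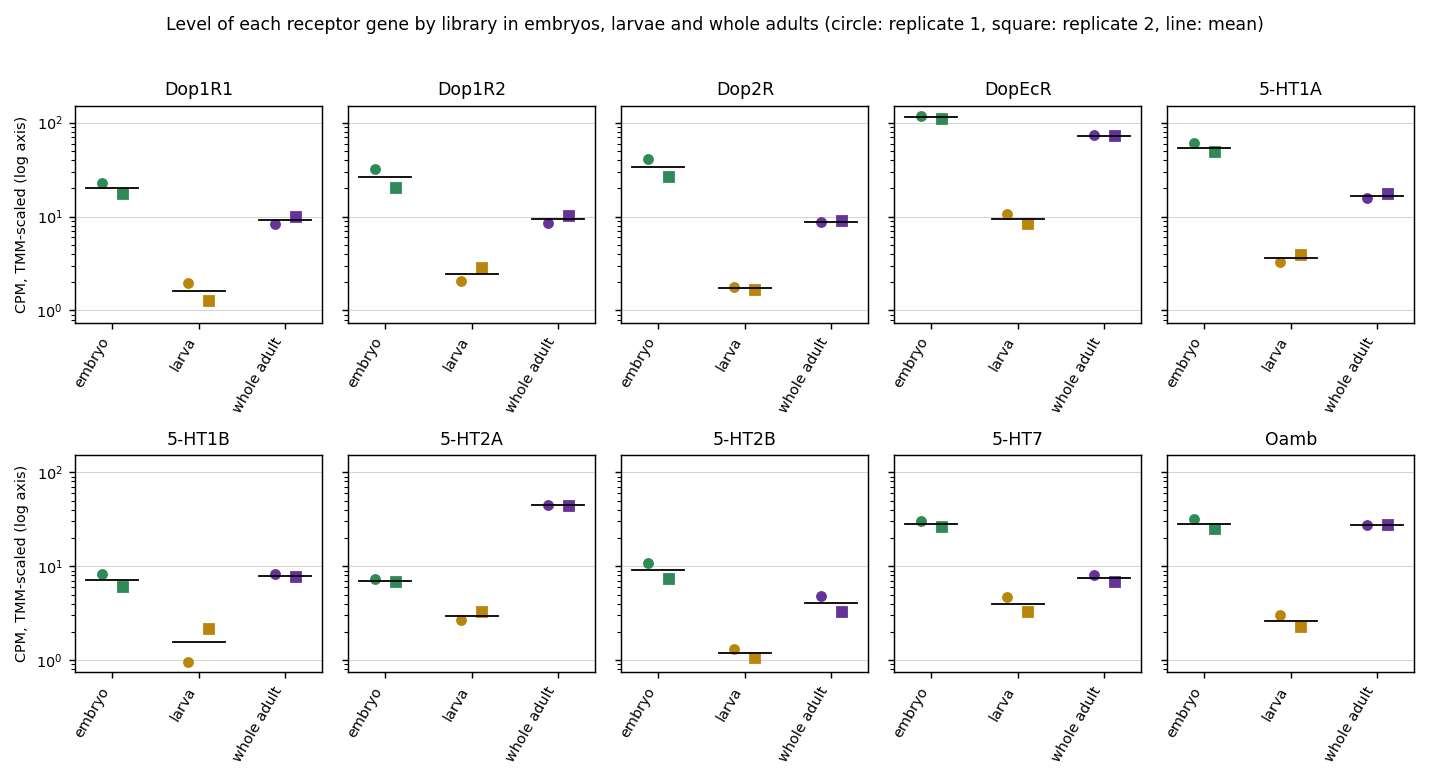
TMM-scaled CPM (log axis) of each receptor gene in embryos, larvae and whole adults, with circles for replicate 1, squares for replicate 2 and lines for the mean of 2 libraries. Larvae are lowest for all 10 genes, and 5-HT2A is highest in adults, at 44.9 and 44.0 CPM against 7.30 and 6.73 in embryos.

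Across the 12 libraries of adult parts the receptors resembled each other in their log2 CPM, with Pearson's r between 0.694 and 0.996 over 45 pairs and a median of 0.935. These correlations are a description, because the 12 points share their libraries and fall into heads and other parts. The closest pair was Dop1R2 with DopEcR (r = 0.996), and the most distant was 5-HT7 with Oamb (r = 0.694). Oamb had the lowest median over its 9 pairs, 0.766, and the other receptors had medians of 0.901 to 0.975.

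Over the same libraries and 12551 genes, the genes most like each receptor were found by the same measure, with the closest 2 taken for each. For the dopamine receptors these were Tace and erm with Dop1R1, CG31221 and wrapper with Dop1R2, CG14591 and Gfrl with Dop2R, and nAChRalpha5 and qvr with DopEcR, with r between 0.996 and 0.999. For the serotonin receptors they were fred and CG34384 with 5-HT1A, beat-VI and nSyb with 5-HT1B, GC and dpr1 with 5-HT2A, CG15236 and CG4133 with 5-HT2B, and Nlg4 and CG34370 with 5-HT7, with r between 0.996 and 0.998. For Oamb they were Dyrk2 (r = 0.992) and hoe1 (r = 0.990). nAChRalpha5 encodes a subunit of the nicotinic acetylcholine receptor, nSyb a synaptic vesicle protein, Nlg4 a neuroligin and beat-VI and dpr1 cell surface proteins of the immunoglobulin family.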

How the data were processed

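RNA of 18 libraries (9 conditions, 2 each) was analysed. The authors trimmed reads with cutadapt 1.15, mapped them with TopHat2 2.1.1 to dm6, and deposited whole-number counts per gene, without normalization. The counter and its options are not given in the sources used here. No column was left unassigned (0). Gene symbols (17741 genes) and exons came from Ensembl 115, in which 17684 genes had the same position as in the table. Sequences were not used here. The members and lists were chosen with earlier results of these data known, and the text names all 10 members, for each the 2 genes closest by Pearson's r of log2 CPM (prior count 2), and genes of the lists.

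The quasi-likelihood test was that of edgeR 4.0.16 (R 4.3.3), after filterByExpr with a minimum count of 10 and TMM, with Benjamini-Hochberg adjustment over all genes. The adult parts (12 libraries, 6 groups) and the stages (6 libraries, 3 groups) were fitted apart. SEs are the log2 fold change over the square root of F. The scripts were tested on simulated data. Alternatives were DESeq2 1.42.0 (size factors and Wald test), upper-quartile factors, other filters, no minimum fold, only the groups compared, each library left out, and the replicate number as a block. Same-numbered libraries of adult parts deviated together (correlations of deviations 0.279 to 0.672 over 15 pairs of groups). The main fit, which gave the SEs, did not include this pairing. The replicate number entered only in the alternative with a block, in which 4 calls were gained and 0 lost. The pairing comes from the data, since the labels do not say what a number shares.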

Additional observations from a re-analysis of the deposited data

Results flagged for a closer look

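A difference between parts that itself differed between the sexes, by the interaction term of edgeR's fit over the 12 libraries of adult parts, was found for 15 pairs of a receptor and a comparison. The head to body difference was larger in females by 2.92 for Dop1R1, 1.62 for 5-HT1A, 1.11 for 5-HT2B and 1.37 for 5-HT7 on the log2 scale. The head to gonad difference was larger in females by 4.23 for Dop1R1, 4.47 for Dop2R, 4.15 for 5-HT1A, 2.72 for 5-HT1B, 4.39 for 5-HT2A, 3.64 for 5-HT2B and 4.76 for 5-HT7. The body to gonad difference was larger in females by 2.53 for 5-HT1A, 3.17 for 5-HT2A, 2.53 for 5-HT2B and 3.39 for 5-HT7. Over all genes tested, 15.7%, 28.1% and 5.84% were called larger in females in these 3 interactions, in that order. As given above, several of these calls were not kept under every alternative. They were 5-HT1A, 5-HT2B and 5-HT7 in head to body, 5-HT1B in head to gonad and 5-HT1A in body to gonad. In heads the female over male changes of all 10 receptors lay between −0.24 and −0.05. The interactions with heads thus mostly restate the female over male differences of bodies and gonads with the sign turned, and are not separate findings. In edgeR's main fit Dop1R2, DopEcR and Oamb were called in none of the 3 interactions. DESeq2's Wald test called 8 receptors in the head to gonad interaction, where edgeR called 7. It called 6 in the head to body interaction and 6 in the body to gonad interaction, where edgeR called 4 in each.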

How the results depend on the processing

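Of 105 called results for single receptors, 0 turned their direction under any alternative run. With at least 10 counts required in every library of the fit, 4 receptors (Dop1R2, Dop2R, 5-HT1B and 5-HT2B) were no longer tested in the adult parts, so that 6 were called in each head comparison and 4 in female body over ovary. Fitted on the groups compared alone, female body over ovary gave 2 calls. With libraries left out in turn, counts ranged from 1 to 5 for the head to body interaction, 3 to 7 for the body to gonad interaction, 6 to 9 for the head to gonad interaction, 4 to 7 for female over male bodies, 7 to 9 for ovary over testis, 2 to 3 for male body over testis, 5 to 7 for adult over embryo and 9 to 10 for adult over larva, and did not change in the other 7 comparisons. Uncalled values that turned were Dop1R1 in female body over ovary (−0.093 to 1.03 with libraries left out), Oamb in female body over ovary (−0.63 to 0.21), Oamb in female over male bodies (−0.038 with DESeq2's size factors, −0.038 in its Wald test, −0.13 with the strict filter, −0.36 to 0.62 with libraries left out, −0.23 without female body replicate 2), Oamb in ovary over testis (−0.16, −0.16, −0.42, and −0.53 to 1.14), 5-HT1B in adult over embryo (−0.071 to 0.39) and Oamb in adult over embryo (0.0026 with upper-quartile factors, 0.025 with the strict filter, 0.13 without embryo replicate 1). With the replicate block no call was lost, and 4 were gained, bringing ovary over testis to 8, the head to body interaction to 6 and the body to gonad interaction to 5. In the stages the numbers did not pair the libraries (correlations −0.05 to 0.12). DESeq2's size factors moved the median log2 fold change of all genes by −0.65 in male head over testis, −0.55 in male body over testis, −0.51 in female over male bodies, −0.95 in ovary over testis, 0.36 in female head over body and 0.31 in female head over ovary, and the share of all calls that were higher from 89.2% to 51.9% in male body over testis, 48.9% to 32.2% in ovary over testis, 46.8% to 29.4% in female over male bodies, 53.8% to 41.8% in male head over testis, 42.8% to 55.0% in female head over body, 56.5% to 66.7% in adult over larva, and from 45.1%, 46.4% and 42.6% to 65.5%, 65.3% and 67.3% in the head to body, head to gonad and body to gonad interactions. With upper-quartile factors that share was 76.5% in male body over testis, 38.8% in ovary over testis, and 58.0% and 62.9% in the head to gonad and body to gonad interactions. Dop1R2, Dop2R, 5-HT1B and 5-HT2B rest on 0 to 12 counts in each ovary library.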
